A study of Mus musculus with 4 samples.

Results

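The cornified envelope genes studied here are 10 genes of late keratinocyte differentiation, namely Krtdap, Sprr1a, Sprr1b, Dmkn, Lor, Ivl, Flg, Sbsn, Cnfn and Tgm1. They are a list of names, with keratins left out, and no threshold on their values was used. The list was chosen with earlier results of these data known, so counts of calls among its genes are descriptions. They were read out in medullary thymic epithelial cells (mTECs) of C57BL/6 wild-type mice aged 6 to 8 weeks, with no treatment, as read counts for 23366 gene symbols. The table used here holds 9 of the 10, and Flg, the gene for filaggrin, was not analysed here. Cells were sorted as PI- CD45- MHCII+ Ly51low, so dead cells, blood-derived cells and cells without MHC class II or with high Ly51 should be depleted. Each RNA library came from a pool of 10 mice, and there were 2 pools of females and 2 pools of males, numbered 1 and 2 within each sex. All 4 carry the same preparation number in their labels, and no source used here says what the numbers mean. The reads assigned to genes ranged from 1976272 in female pool 2 to 7103627 in male pool 1, with 3508921 in female pool 1 and 3344471 in male pool 2.

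The cornified envelope is a protein shell that forms under the plasma membrane of a keratinocyte as it dies to become part of the outer layer of the skin. Structural proteins such as involucrin, loricrin and the small proline-rich proteins are joined to each other by transglutaminases, and ceramides are attached on the outside. The proteins are made in the suprabasal layers of the epidermis, together with secreted proteins whose genes are switched on at the same stage. In the thymus, mTECs transcribe many genes of other tissues, under Aire and other regulators, which exposes developing T cells to self antigens. Some mTECs also go through a late differentiation that resembles that of keratinocytes and is seen in Hassall's corpuscles. In a pool of cells, more cells of such a type and more RNA per cell cannot be told apart.

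The 9 genes lie on 3 chromosomes. Coordinates are those of NCBIM37, the mm9 assembly. Lor (chr3:91884197-91887064), Sprr1b (chr3:92240731-92242701), Sprr1a (chr3:92287877-92289816) and Ivl (chr3:92374834-92377637), all on the minus strand, belong to the epidermal differentiation complex, a dense cluster of genes for envelope proteins. Sbsn (chr7:31536490-31541152), Dmkn (chr7:31548775-31566085) and Krtdap (chr7:31572924-31576102) sit side by side on the plus strand. Cnfn (chr7:26152635-26154743) and Tgm1 (chr14:56318846-56332329) lie apart, on the minus strand. None of the 9 overlaps another annotated gene on either strand. Of the runs of 50 bases in their transcripts, those of 8 genes occurred in no transcript of another protein-coding gene, and Ivl shared 8 of its 1862 runs with such genes. Other types of transcript, such as those of pseudogenes, were not searched.

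Promoter sequences are shown for the 3 genes called in the comparison by pool number, beside that of Cnfn. Windows from 250 bases before to 50 bases from each RefSeq start were taken from RefSeq (GRCm38.p6 table), and each matched NCBIM37 at exactly 1 place on its chromosome. The letters TATAAA were searched on the gene's strand, TGANTCA (the AP-1 motif, bound by Jun and Fos proteins) on both strands, and CCNCNCCC (a motif of the Krüppel-like factors) on both strands. The TATA motif was found for 5 of the 9 genes, Krtdap, Sprr1a, Sprr1b, Lor and Ivl, and in 8.32% of all 32851 windows of this length. The AP-1 motif was found for 7 of the 9 genes, the same 5 plus Dmkn and Sbsn, and in 7.81% of all windows. The Krüppel-like factor motif was found for 6 of the 9 genes and in 49.5% of all windows. Below are the 150 bases before the RefSeq start of Krtdap (chr7:31572774-31572923, plus strand), Sprr1a (chr3:92289804-92289953, minus strand) and Dmkn (chr7:31548625-31548774, plus strand, the first of its 3 windows), and of Cnfn (chr7:26154744-26154893, minus strand), which holds neither the TATA nor the AP-1 letters. Each is written 5′ to 3′ on the gene's strand and ends at the base before the RefSeq start, with the TATA and AP-1 letters in capitals.
Krtdap: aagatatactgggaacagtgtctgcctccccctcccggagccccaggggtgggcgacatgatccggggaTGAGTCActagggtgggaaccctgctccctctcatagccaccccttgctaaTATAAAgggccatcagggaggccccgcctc
Sprr1a: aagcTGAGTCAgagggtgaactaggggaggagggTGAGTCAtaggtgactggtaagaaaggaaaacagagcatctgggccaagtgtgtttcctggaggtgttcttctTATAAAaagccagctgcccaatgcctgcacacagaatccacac
Dmkn: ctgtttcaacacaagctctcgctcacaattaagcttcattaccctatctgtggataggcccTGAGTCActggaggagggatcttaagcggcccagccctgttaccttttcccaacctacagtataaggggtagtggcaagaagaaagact
Cnfn: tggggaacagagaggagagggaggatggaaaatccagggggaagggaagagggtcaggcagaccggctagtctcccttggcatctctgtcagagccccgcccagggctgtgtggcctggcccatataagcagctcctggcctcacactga
The RefSeq start is the start of the gene coordinates given above for the windows of Krtdap, Dmkn and Cnfn shown here, but that of Sprr1a lies 13 bases inside them. Krtdap holds 1 AP-1 match that begins 81 bases before the start and a TATA match that begins 30 bases before it. Sprr1a holds AP-1 matches that begin 146 and 116 bases before the RefSeq start and a TATA match that begins 43 bases before it, which is 133, 103 and 30 bases before the start of its gene coordinates. The AP-1 match of Dmkn begins 89 bases before the start. These are matches of letters and not known binding sites, and the absence of a match says only that those letters are not in the window.

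**Figure D1:**
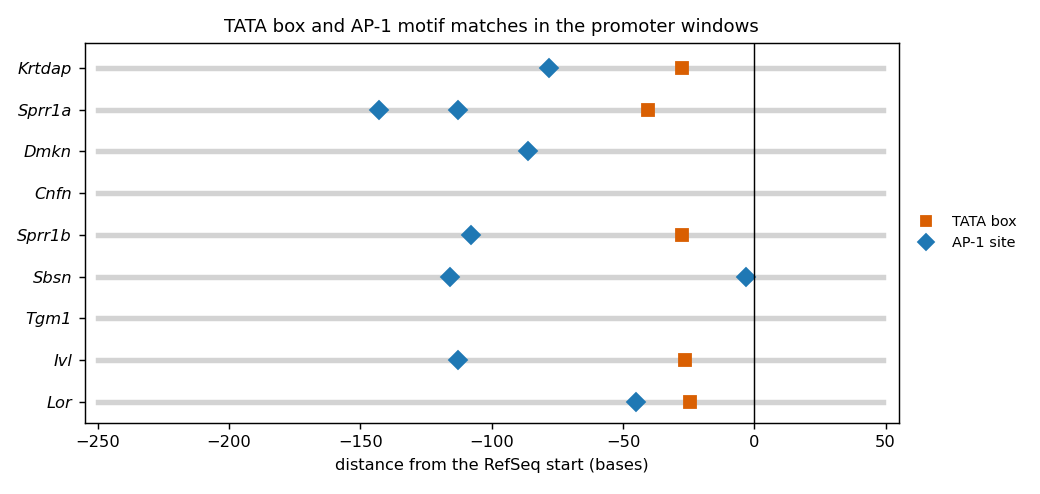
Matches of the TATA (orange squares) and AP-1 (blue diamonds) letters in the promoter window of each gene, by distance from the RefSeq start in bases, at the middle of each match. For Dmkn, the first of 3 windows is drawn. The rows of Cnfn and Tgm1 are empty. Counted from the start of the gene coordinates, the TATA matches of Krtdap, Sprr1a and Sprr1b all begin 30 bases before it, that of Lor 27 and that of Ivl 49.

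Levels were compared between genes as RPKM, which is the count scaled to library size (CPM), rescaled with edgeR's TMM factors and divided by the gene's exon length in kilobases. Krtdap, whose product is a small secreted protein of differentiating keratinocytes, had the highest mean level of the 9 genes. Female pools 1 and 2 had an RPKM of 6.53 and 30.2 and male pools 1 and 2 of 5.73 and 110, and the mean of 38.1 ± 49.3 (SD, n = 4) lay above that of 90.9% of the genes with a count and a length. Sprr1a, a small proline-rich protein that is cross-linked into the envelope, followed with 5.06, 24.6, 8.45 and 42.5 in the same order of pools, and its mean of 20.1 ± 17.2 (SD, n = 4) lay above 85.4% of genes. By the mean of the 4 pools, both genes were thus among the more abundant transcripts in RPKM, with an SD close to the mean or above it. The pools numbered 2 carried most of these means, and in the pools numbered 1 neither gene exceeded 8.45.

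The other 7 genes were lower. Dmkn, which encodes the secreted protein dermokine, had a mean RPKM of 5.09, above 65.9% of genes. Cnfn, which encodes the envelope protein cornifelin, had a mean RPKM of 4.08, of which male pool 2 gave most, with 13.8 against 0, 2.04 and 0.493 in the other pools in the order given above. Sprr1b had a mean RPKM of 1.98 and Sbsn, which encodes the secreted suprabasin, 1.61. Tgm1, the membrane-bound transglutaminase that cross-links the envelope, had 0.759, Ivl, the gene for the early scaffold protein involucrin, 0.583, and Lor, the gene for loricrin, the main envelope protein of the epidermis, 0.392. The genes of the classic envelope proteins involucrin and loricrin were therefore at the bottom of the order and the gene of a secreted protein at the top. Of the 8 neighbouring pairs in this order, only Sprr1a and Dmkn kept their order in all 4 pools. Krtdap lay above Sprr1a in 3 of 4 pools, Dmkn above Cnfn in 3 of 4, and Cnfn above Sprr1b in 1 of 4.

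**Figure D2:**
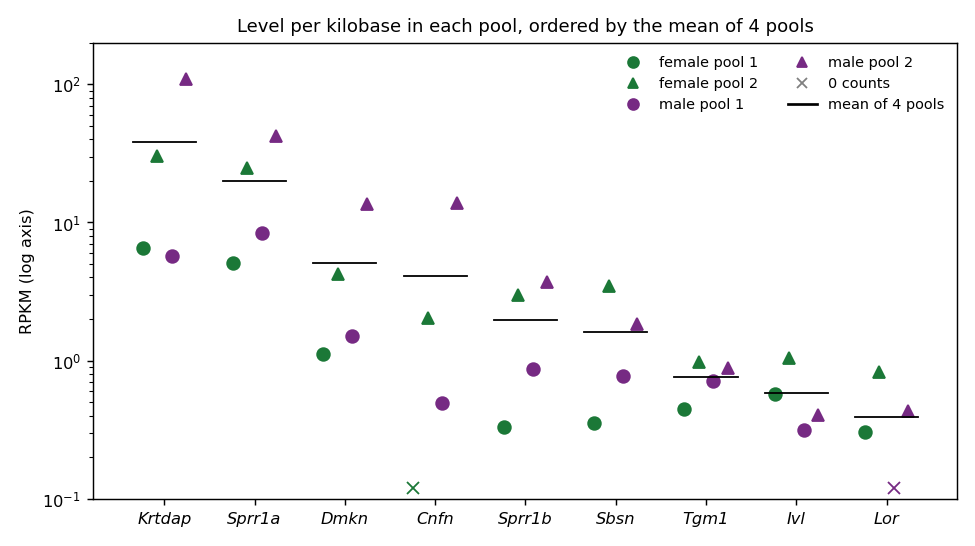
RPKM (log axis) of the 9 genes in each pool, ordered by the mean over the 4 pools (black line). Green is female, purple is male, circles are pools numbered 1, triangles are pools numbered 2, and crosses at the foot mark pools with 0 counts. The triangles lie above the circles of their own colour in each column, although with library size as the only scaling this turns for Tgm1 and Ivl in males, and the spread within a gene covers the gaps between most neighbours.

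Several of these levels rest on few reads. Lor had 2, 3, 0 and 2 counts in female pools 1 and 2 and male pools 1 and 2, so each pool was at or under 3 counts, the number that a count of 0 still allows. Ivl had 4, 4, 5 and 2 counts, Sprr1b 1, 5, 6 and 8, Cnfn 0, 3, 3 and 26, and Tgm1 5, 6, 18 and 7, in the same order. As normalized CPM (scaled to library size and rescaled with the TMM factors, with no gene length), 3 counts amounted to 0.812 in pool 1 and 1.48 in pool 2 of the females, and to 0.357 and 1.15 in those of the males. These limits cover counting error only. A gene was tested where it reached 2.92 CPM in at least 2 pools (edgeR's filter with a minimum count of 10), which Krtdap, Sprr1a, Dmkn and Sbsn did. Krtdap and Sprr1a reached it in 4 pools, Dmkn in 3, and Sbsn only in the pools numbered 2, so Sbsn entered the test through the pools where it was high.

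The pools held transcripts of mTECs beside those of other cells. Of 14 markers of medullary thymic epithelium, 13 had a count, and the exception was Ccl21a. Aire stood at 19.2, 31.5, 19.6 and 28.7 normalized CPM in female pools 1 and 2 and male pools 1 and 2. Transcripts of cells that the sort should deplete were abundant, and Cd79a, a part of the B cell receptor, stood at 2420, 1530, 1850 and 1450 normalized CPM in the same order. All 8 B cell markers had a count too, so a count alone does not identify the cells. The medullary markers summed to 691, 1060, 679 and 924 normalized CPM in that order. The sums were 4550, 3000, 3760 and 2500 for the B cell markers and 2070, 3380, 1550 and 4430 for 10 dendritic cell and macrophage markers. The levels of the envelope genes are averages over all cells of a pool.

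The study asked how the transcriptome of mTECs differs between males and females. In that comparison no cornified envelope gene passed the test. Krtdap stood at 2.98 and 13.8 normalized CPM in pools 1 and 2 of the females and at 2.61 and 50.2 in pools 1 and 2 of the males. The sexes overlapped, with the lowest and the highest pool both male. The mean was 8.38 ± 7.64 in females and 26.4 ± 33.6 in males (SD, n = 2 each), a log2 fold change (male over female) of 1.68 (SE 1.29, edgeR adjusted p = 1). Sprr1a stood at 4.06 and 19.7 in females and at 6.77 and 34.1 in males, and its log2 fold change was 0.79 (SE 0.93, edgeR adjusted p = 1). Dmkn stood at 2.44 and 9.36 in females and at 3.33 and 29.5 in males, and its log2 fold change was 1.49 (SE 1.08, edgeR adjusted p = 1). For all 3 genes the male pools differed from each other by more than the means of the sexes did. Sbsn stood at 0.812 and 7.88 in females and at 1.78 and 4.21 in males, and its log2 fold change was -0.51 (SE 1.04, edgeR adjusted p = 1). Here both male pools fell between the female pools.

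Of all 10865 genes tested between the sexes, 0 (0%) passed the adjusted threshold of 0.05, with 48 genes (0.442%) at an unadjusted p under 0.05 and a smallest adjusted p of 0.186. DESeq2 called 3 genes and edgeR's exact test 8, none of them a cornified envelope gene. The paper listed genes higher in males at a false discovery rate under 0.05, with genes of the Y chromosome among them. It names edgeR but not the test, and the main fit here called none of them. The lack of calls for the envelope genes is therefore no evidence that the sexes are alike. Over the 4 tested envelope genes the log2 fold changes had a median of 1.14, against 0.03 over all genes tested. Of the 4, 3 had a value above 0, beside 53.2% of all genes tested. Of the 9 genes, only Ivl had sexes that did not overlap, with 1.08 and 1.97 normalized CPM in females and 0.594 and 0.766 in males, from 5 counts or fewer per pool. Over all 17866 genes with a count, the sexes did not overlap for 21.9%.

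The direction of the difference between the sexes turned when single pools were left out, but each such fit also leaves the pool numbers unequal between the sexes. With pool number as a replicate block, the log2 fold changes of male over female were 1.14 (SE 0.45) for Krtdap, 0.77 (SE 0.37) for Sprr1a and 1.18 (SE 0.46) for Dmkn. That of Sbsn was -0.13 (SE 0.63), and none was called. Without male pool 2, the log2 fold change of male over female was -1.56 for Krtdap, -0.70 for Sprr1a and -0.70 for Dmkn, with no call. Without male pool 1, 3 of the 4 genes tested above were called higher in males, at log2 fold changes of 2.72 for Krtdap (edgeR adjusted p = 4.84e-06), 2.45 for Dmkn (edgeR adjusted p = 0.000278) and 1.63 for Sprr1a (edgeR adjusted p = 0.0106). Cnfn then passed the filter through male pool 2 alone, the pool where it was high, with 26 counts against 0 and 3 in the female pools, so its call there is no support. In that comparison 646 of 11292 genes (5.72%) were called, and the single male pool was assumed to vary as the female pools did. The sign for Sbsn turned positive without female pool 2, at 1.80, and without male pool 1, at 0.14. Markers of other cells also differed between the sexes, and their part in these values was not tested. The ratio of males to females in summed normalized CPM, first in pools numbered 1 and then in pools numbered 2, was 1.35 and 2.21 for the envelope genes, 2.34 and 3.66 for 9 neutrophil markers, 4.66 and 1.78 for 8 fibroblast markers and 2.73 and 1.30 for 10 thymocyte markers, with none of these markers called. With library size as the only scaling, the ratios were 1.52 and 1.68, 2.63 and 2.78, 5.25 and 1.35, and 3.08 and 0.988 in the same order.

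**Figure D3:**
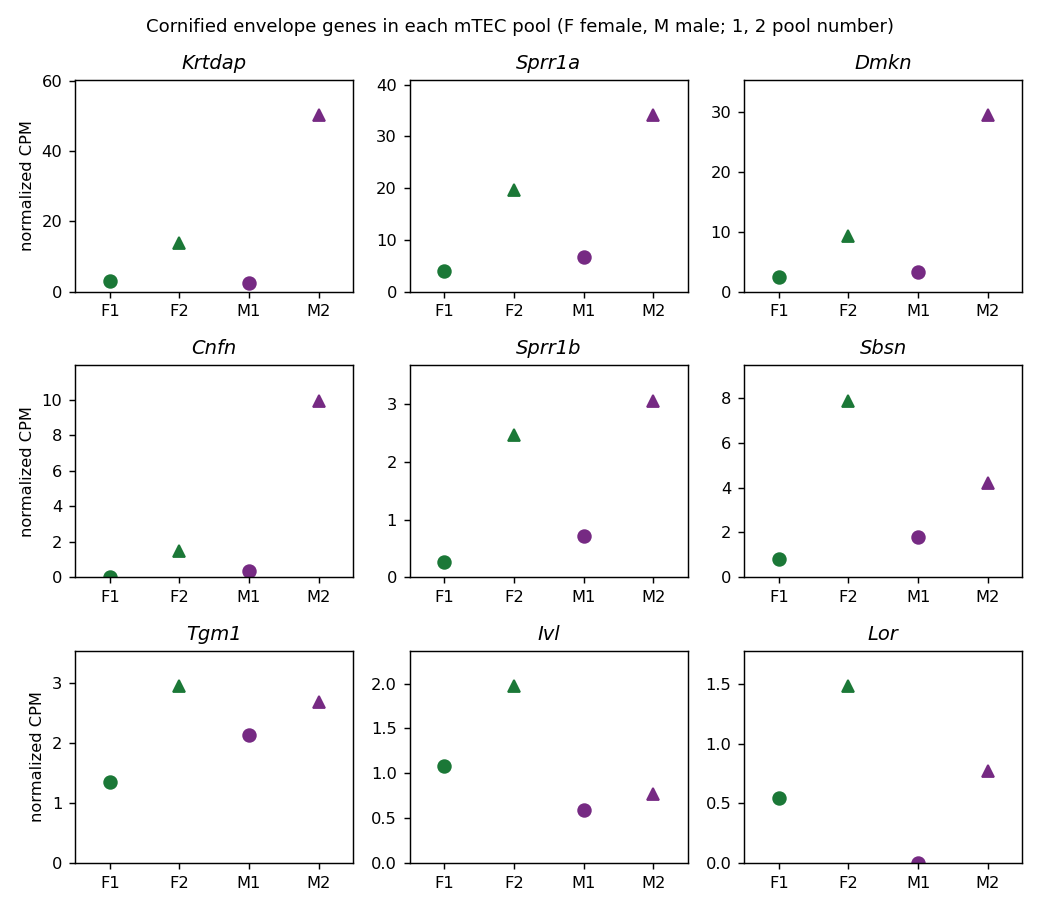
Normalized CPM of each of the 9 genes in the 4 pools (F female, M male, 1 and 2 the pool number; the vertical axes differ between panels and start at 0). In each panel except that of Ivl, both pools numbered 2 (triangles) lie above both pools numbered 1 (circles), which for Tgm1 does not hold with library size as the only scaling, and male pool 2 is the highest pool for Krtdap, Sprr1a, Dmkn, Cnfn and Sprr1b.

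The same values were set apart by pool number. For 8 of the 9 genes, all but Ivl, both pools numbered 2 lay above both pools numbered 1, an order that 24.4% of the 17866 genes with a count also had. With library size as the only scaling this held for 7 genes, because Tgm1 then stood at 1.42 and 2.53 CPM in the pools numbered 1 and at 3.04 and 2.09 in those numbered 2. The pools numbered 2 had fewer reads, so a count weighs more there. For genes with few counts, such as Lor and Sprr1b, the order is therefore weak, and the share over all genes is not matched for count. The summed level of the 9 genes was 13.5 and 18.3 normalized CPM in the pools numbered 1 of females and males, and 61.1 and 135 in those numbered 2. The ratio of pool 2 to pool 1 was 4.51 in females and 7.39 in males, and 4.40 and 4.87 with library size as the only scaling. The sum follows the genes with most counts, and Krtdap, Sprr1a and Dmkn gave 69.5% to 84.1% of it in each pool.

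Krtdap, Sprr1a and Dmkn were higher in the pools numbered 2 in the test over all genes. The mean of Krtdap was 2.80 ± 0.257 normalized CPM in the pools numbered 1 and 32.0 ± 25.7 in those numbered 2 (SD, n = 2 each), a log2 fold change of 3.55 (SE 0.58, edgeR adjusted p = 0.0391). The mean of Sprr1a was 5.42 ± 1.92 in pools numbered 1 and 26.9 ± 10.2 in pools numbered 2, a log2 fold change of 2.26 (SE 0.38, edgeR adjusted p = 0.0391). Dmkn averaged 2.88 ± 0.63 and 19.4 ± 14.2, a log2 fold change of 2.72 (SE 0.54, edgeR adjusted p = 0.0458). In normalized CPM, the pools numbered 2 differed from each other more than the pools numbered 1 did, with male pool 2 the higher for all 3 genes. For Sprr1a the proportion was nearly the same, with 6.77 in males against 4.06 in females in pools numbered 1 and 34.1 against 19.7 in those numbered 2. Sbsn averaged 1.30 ± 0.686 and 6.05 ± 2.59, a log2 fold change of 2.03 (SE 0.56) that did not pass the test (edgeR adjusted p = 0.0791). Sbsn differed from its neighbours Dmkn and Krtdap in that female pool 2 and not male pool 2 was its highest.

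Of all 10865 genes tested by pool number, 221 (2.03%) passed the adjusted threshold, 202 (1.86%) higher and 19 lower in pool 2, where 3 of the 4 tested envelope genes were called higher. The envelope genes were chosen with earlier results of these data known, so the shares of all genes stand beside them as a description only. At an unadjusted p under 0.05 the share of all genes was 23.7%. With library size as the only scaling, 764 of the 10865 genes passed, 376 higher and 388 lower, and the median log2 fold change of all genes moved from -0.03 to -0.35. All 4 tested envelope genes were called higher under that scaling, with Sbsn at a log2 fold change of 1.70 (edgeR adjusted p = 0.0495). Sbsn passed the filter only through the pools numbered 2, where it was high, so its call there is no support. Without a filter on low counts, 1504 of 17866 genes (8.42%) and 5 of the 9 envelope genes were called, the 4 tested above plus Cnfn, with 0 and 3 counts in pools numbered 1 against 3 and 26 in those numbered 2 (edgeR adjusted p = 2.81e-06), while Sprr1b (edgeR adjusted p = 0.102), Lor (0.414), Tgm1 (0.735) and Ivl (0.796) were not. Without male pool 2, Krtdap passed with a log2 fold change of 2.31 (edgeR adjusted p = 0.0486), whereas Sprr1a, at 1.79 (edgeR adjusted p = 0.0673), and Dmkn, at 1.64 (edgeR adjusted p = 0.162), did not. The comparison rests on 4 libraries and on a number of unstated meaning.

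Within each sex, the log2 ratio of pool 2 to pool 1 was 2.21 in females and 4.26 in males for Krtdap. The ratios for Sprr1a were close to each other, at 2.28 and 2.33. For Dmkn they were 1.94 and 3.15, and for Sbsn 3.28 and 1.24. Sprr1b, the close relative of Sprr1a, had 3.19 and 2.10, from at most 8 counts in a pool. Tgm1 had 1.13 and 0.33 and Ivl 0.86 and 0.37, the smallest ratios of the genes with a count in every pool. The last ratios turned in males under scaling by library size alone, where Tgm1 stood at 2.53 and 2.09 CPM and Ivl at 0.704 and 0.598 in pools 1 and 2. With 1 library per sex and pool number, a difference between the sexes in these ratios could not be tested.

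**Figure D4:**
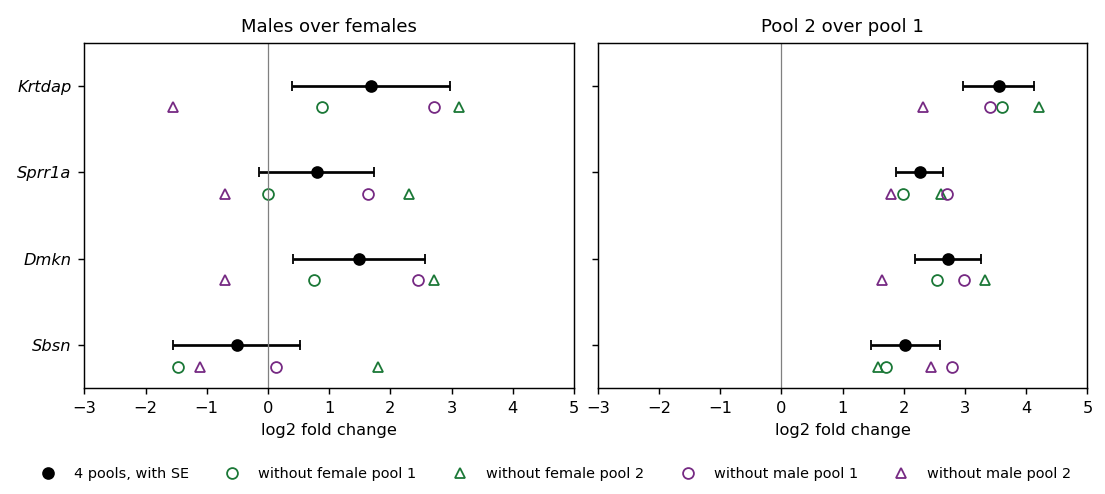
Log2 fold changes of the 4 tested genes between males and females (left) and between pools numbered 2 and 1 (right), with the SE of the fit over 4 pools (black) and the value without each pool in turn (open symbols). On the left the values without a pool lie on both sides of 0 for Krtdap, Dmkn, Sbsn and Sprr1a, and on the right all lie above 0.

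Other genes of the same pathway were read from lists of related genes. Of 53 other envelope proteins, 50 were in the table, 40 had a count and 2 were tested. Cst6, which encodes cystatin M/E, an inhibitor of the proteases that act on transglutaminases and the corneocyte surface, had 7 and 28 counts in pools numbered 1 of females and males and 40 and 147 in those numbered 2. It was higher in the pools numbered 2, with a log2 fold change of 3.77 (SE 0.53, edgeR adjusted p = 0.0391), close in size to Krtdap. Ecm1, an extracellular matrix protein of the skin, had a log2 fold change of 0.88 (SE 0.40, edgeR adjusted p = 0.217). Sprr2i, a further small proline-rich gene, had 3 to 11 counts and was not tested. The summed level of these other envelope proteins was 12.2 and 20.6 normalized CPM in pools numbered 1 and 60.6 and 93.1 in those numbered 2, ratios of 4.97 in females and 4.53 in males. Cst6 carried much of this in males, and without it the ratios were 3.97 and 2.13. Of the 40 genes with a count, 19 had both pools numbered 2 above both numbered 1 and 1 had the reverse. Of all genes with a count, 24.4% and 21.7% had these orders, shares that are not matched for count. Only 2 of the 40 had the counts to be tested. The pools numbered 2 had fewer reads, so a count weighs more there and equal small counts can give the first order. Sprr2g had it from 0, 1, 1 and 1 counts in female pools 1 and 2 and male pools 1 and 2.

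The enzymes and regulators of the pathway had smaller ratios. The transglutaminases, with 1 of 4 tested and 0 called, had summed ratios of pool 2 to pool 1 of 1.10 in females and 1.16 in males, the latter 0.763 with library size as the only scaling. Tgm2, the ubiquitous transglutaminase, was the most abundant of them, at a mean RPKM of 4.80 against 0.759 for Tgm1. Of 20 proteases and inhibitors, 6 were tested and 1 was called, Cst6 again, and the leading genes Slpi, Asprv1 and St14 did not pass, with log2 fold changes of 0.93, 0.68 and -0.23. Of 21 barrier lipid enzymes, 9 were tested and 1 was called in each direction. Degs2, a desaturase and hydroxylase that makes phytoceramides, was higher in pool 2 with a log2 fold change of 1.46 (SE 0.29, edgeR adjusted p = 0.0458), and Ugcg, which makes glucosylceramide, was lower with a log2 fold change of -1.33 (SE 0.28, edgeR adjusted p = 0.0497). Elovl1, an elongase of very long chain fatty acids, had a log2 fold change of -0.01 and was not called. Of 12 corneodesmosome genes, 3 were tested, Pkp3, Jup and Perp, and of 20 late keratinocyte regulators, 13 were tested, and none of either list was called. Among the regulators, Junb, Cebpb and Klf4 were the most abundant, with log2 fold changes of pool 2 over pool 1 of -0.20, -0.11 and 0.57. Between the sexes, no gene of these lists was called.

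Markers of several cell types also moved with the pool number, and their part in the result for the envelope genes was not tested. The 13 suprabasal keratins summed to 29.8 and 52.5 normalized CPM in pools numbered 1 of females and males and to 108 and 102 in those numbered 2, ratios of 3.62 and 1.95 (3.53 and 1.28 with library size as the only scaling). Of the 3 tested, none was called. Krt17, which is also made in thymic epithelium, led them, with a log2 fold change of 1.25 (SE 0.32, edgeR adjusted p = 0.0675), and Krt10, the keratin of the suprabasal epidermis, had 1.45 (SE 0.43, edgeR adjusted p = 0.0977). Krt1, the partner of Krt10, had 0, 1, 4 and 1 counts in female pools 1 and 2 and male pools 1 and 2. The defining keratin pair of the cornifying epidermis was therefore present only through Krt10 beyond a few reads.

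The 14 markers of medullary thymic epithelium summed to 691 and 679 normalized CPM in pools numbered 1 and to 1060 and 924 in those numbered 2, ratios of 1.54 in females and 1.36 in males, with Ccl21a at 0. Scaled by library size alone, the ratio in females was 1.5 and that in males turned to 0.897. Of the 13 tested, 12 had a log2 fold change above 0, the median was 0.76 and none was called. Over all genes tested, 47.9% lay above 0, with a median of -0.03. Krt8 came nearest, at 1.22 (SE 0.26, edgeR adjusted p = 0.0532), and Aire had 0.63 (edgeR adjusted p = 0.164). B cell markers moved the other way, with sums of 4550 and 3760 in pools numbered 1 and 3000 and 2500 in those numbered 2, ratios of 0.659 and 0.666 that were 0.643 and 0.439 with library size as the only scaling. All 8 were lower in both pools numbered 2 than in both numbered 1, an order that 21.7% of all genes with a count had, although Pax5 stood at 2.38 against 2.30 in the male pools. Of the 7 tested, none was called. Dendritic cell and macrophage markers had ratios of 1.63 and 2.85 (1.59 and 1.88 with library size as the only scaling), with 0 of 10 tested called. Only 6 of the 10 had a log2 fold change above 0. Lyz2 carried much of their sums, with 1160 of 2070 and 2380 of 3380 normalized CPM in female pools 1 and 2. In male pools 1 and 2 it gave 836 of 1550 and 3310 of 4430. Skin cells other than keratinocytes, such as melanocytes and Langerhans cells, had ratios of 0.891 and 1.49, the latter 0.979 with library size as the only scaling. In females and males in turn, the ratios were 0.798 and 0.380 for thymocyte, 2.93 and 1.12 for fibroblast, 0.980 and 1.53 for neutrophil, 1.21 and 0.798 for endothelial, 1.04 and 1.24 for cortical epithelial and 2.29 and 1.10 for tuft-like epithelial markers, with no call in any of these lists. Scaled by library size alone, the male ratios of the fibroblast, cortical epithelial and tuft-like epithelial markers turned to 0.736, 0.820 and 0.727. The summed ratios of the medullary, B cell and myeloid lists were smaller than those of the envelope genes in both sexes and under both scalings. Such sums follow the most abundant genes, in the medullary list Spint2 and Relb, with 240 and 252 of the 691 in female pool 1. Log2 fold changes of single medullary markers ranged from -0.015 for Cd80 to 1.75 for Cldn3. What a change in the mix of cells would add to the envelope genes was not tested.

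**Figure D5:**
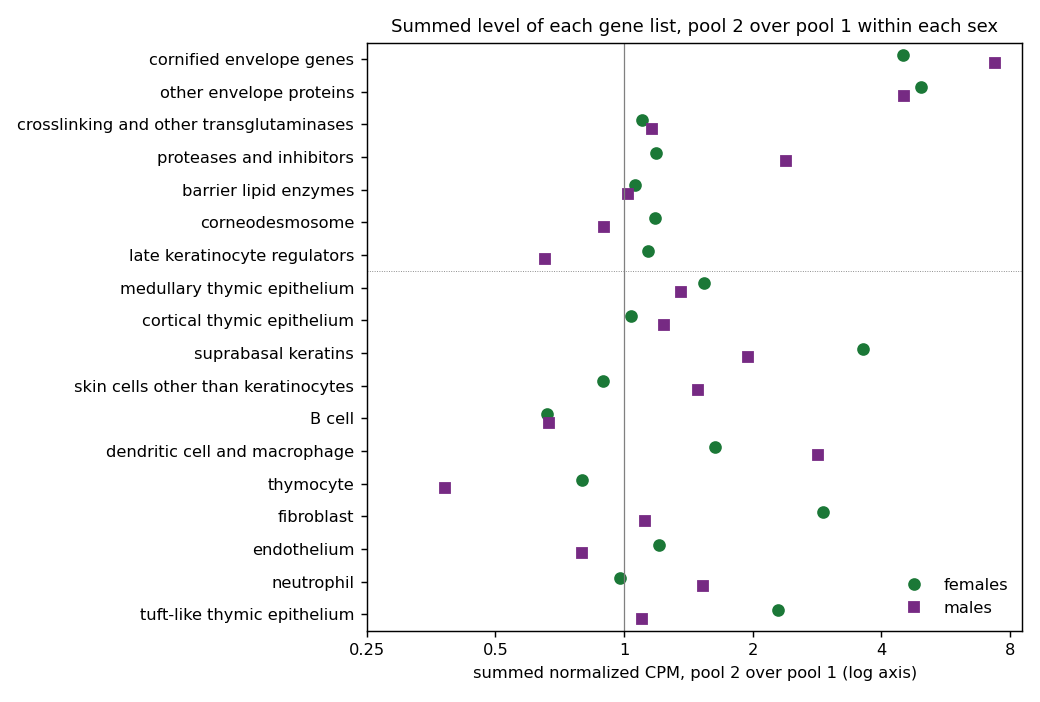
Ratio of pool 2 to pool 1 of the summed normalized CPM of each list (log axis), in females (green circles) and males (purple squares), with related lists above the dotted line and cell type markers below it. The cornified envelope genes, at 4.51 and 7.39, and the other envelope proteins, at 4.97 and 4.53, lie furthest to the right, and the B cell markers lie left of 1 in both sexes. With library size as the only scaling, the male ratios are lower and those of 7 lists turn from above to below 1.

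The genes around the members were read as well. Between Lor and Ivl on chromosome 3, the table holds 15 further genes, mostly of the Sprr2 family, of which 12 had a count and 0 were tested, the highest with 24 counts over the 4 pools. Of these 12, 8 had both pools numbered 2 above both numbered 1, beside 24.4% of all genes with a count, but some of them rest on single reads, such as Sprr2b with 0, 1, 0 and 1 counts. A single read also weighs more in the pools numbered 2, which had fewer reads. Reads from the near-identical Sprr2 copies may have been left uncounted, so their counts are uncertain. Within 150000 bases of Sbsn, Dmkn and Krtdap on chromosome 7, the table holds 16 further genes, 15 of them with a count and 6 tested, and 7 of the 15 had that order. None of the 6 tested was called, with log2 fold changes of -0.78 for Cd22, -0.11 for Haus5, -0.03 for Upk1a, -0.02 for Rbm42, 0.34 for Tmem147 and 1.44 for Cox6b1. The calls in this stretch were thus those of Dmkn and Krtdap.

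The genes whose profile over the 4 pools was closest to that of Krtdap were found by the root mean square distance of centred log2 normalized CPM. They were Ccl27a, a chemokine made by keratinocytes, at a distance of 0.155, Wfdc18 at 0.168, Lst1 at 0.194, Hamp, the gene for the hormone hepcidin, at 0.214, and Mt3, a metallothionein, at 0.240, where the median distance over all tested genes was 1.79. Ccl27a stood at 2.44, 10.3, 2.26 and 50.6 normalized CPM in female pools 1 and 2 and male pools 1 and 2, nearly the values of Krtdap itself. Wfdc18 had a like shape at a higher level, from 25.2 normalized CPM in female pool 1 to 558 in male pool 2. With 4 pools, many of the 10865 genes can come near a given profile, and the likeness is given as a description.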

How the data were processed

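RNA of sorted mTECs was made into libraries with a low-input cDNA kit and sequenced by the authors. The authors removed low-quality reads with Trimmomatic, aligned the rest to mm9 (TopHat2), obtained per-gene counts (HTSeq) and deposited these raw counts, which are not normalized. Versions, annotation and strand setting of the counting are not given in the sources used here. Rows of unassigned reads, 66.9% to 70.2% of each pool, were left out. No pair of pools agreed within sampling noise (lowest chi-square per degree of freedom 11). The p-values rest on the spread between 2 pools per group, which edgeR moderates with that of other genes. With sex as the only term this spread includes any difference by pool number, and with pool number as the only term any difference by sex. Where a pool was left out, the spread came from the group that kept both.

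Counts were tested with edgeR 4.0.16 in R 4.3.3 by the quasi-likelihood test (TMM, filterByExpr with a minimum count of 10, prior count 0.125, Benjamini-Hochberg over all genes tested, two-sided, threshold 0.05), with sex or pool number as the only term. TMM factors were 1.05 and 1.03 in female pools and 1.18 and 0.78 in male pools. The SE was derived from the log2 fold change and the F statistic. RPKM used exon lengths of GENCODE vM1, in which 21048 symbols (90.1%) matched 1 gene. Genes are named by list membership, by abundance (the 3 highest per list, of which the text gives those that bear on a result), by the adjusted threshold and by distance to Krtdap, except 1 gene that is not reported here. Names of neighbouring genes and of some list members, such as Krt1 and Ccl21a, were added after values were seen. The members and lists were chosen with earlier results of these data known. Alternatives were upper-quartile or library-size scaling, other filters, DESeq2 1.42.0, edgeR's exact test, a prior count of 2, the other factor as a term, each pool left out, and the longest transcript for RPKM. Scaling alternatives for the count of genes with non-overlapping pools and for summed lists, and the list without Cst6, were added after the data were seen.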

Additional observations from a re-analysis of the deposited data

How the results depend on the processing

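Between the sexes, the count of called genes was 0 and became 5 under scaling by library size, 26 without a filter, 3 with DESeq2, 8 with the exact test and 17 with pool number as a replicate block. Leaving out 1 pool at a time gave 0 to 646 genes, the highest without male pool 1, and 0 to 4 cornified envelope genes (the 4, without male pool 1, counting Cnfn), where the other alternatives called none. Leaving out a pool moved the log2 fold change of male over female from -1.56 to 3.12 for Krtdap, from -0.70 to 2.31 for Sprr1a, from -0.70 to 2.72 for Dmkn and from -1.47 to 1.80 for Sbsn, with -1.56, -0.70 and -0.70 without male pool 2 for the first 3, and for Sbsn 1.80 without female pool 2 and 0.14 without male pool 1.

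By pool number, the 221 called genes became 764 under scaling by library size, 1504 without a filter, 651 with DESeq2, 1138 with the exact test and 807 with sex as a covariate, and 174 to 2620 without 1 pool, the highest without female pool 2 and 411 without female pool 1. The 3 called envelope genes became 5 with no filter and 1 to 4 without 1 pool, the lowest without male pool 2, where each 4 counts Cnfn, which then passed the filter through male pool 2 alone. Krtdap, Sprr1a and Dmkn passed under each alternative that kept all 4 pools, and Sbsn under 4 of them. Where the main filter was used, Sbsn entered only through the pools numbered 2, so its calls there are no support. The calls over all genes moved beside those of the envelope genes. Upper-quartile scaling called 215 of 10865 genes and 3 of 4 envelope genes. The exact test called 1138 of 10865 and 4 of 4, and the fit without a filter 1504 of 17866 and 5 of 9. Without 1 pool the calls over all genes moved too, and 1 group then held 1 library. The envelope calls are therefore descriptions, not set against a fixed share of all genes. Without male pool 2, the log2 fold change fell from 3.55 to 2.31 for Krtdap, from 2.26 to 1.79 for Sprr1a and from 2.72 to 1.64 for Dmkn. The cause of these changes was not tested, beyond the additional genes tested without a filter.

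No source says that same-numbered pools share more than a number, and they were not treated as pairs. The correlation over genes of pool 2 minus pool 1 between the sexes was 0.527, from 2 pairs. The block changed no call of an envelope gene between the sexes. Depth limits Lor, Ivl, Sprr1b, Cnfn and Tgm1, which were given by their counts. Each group held 2 pools. Without male pool 2 the sign of the difference between the sexes turned for Krtdap, Sprr1a and Dmkn. That fit sets a male pool numbered 1 against female pools of both numbers, so sex and pool number are mixed in it.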
